A study of Mus musculus with 12 samples.

Results

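The miR-29 family was followed over retina and sclera of mice with form-deprivation myopia, in which an eye that is deprived of sharp images grows too long and becomes near-sighted. A microRNA (miRNA) is a short RNA that lowers the output of mRNAs, which it finds mainly through its seed, bases 2 to 8. The members of the miR-29 family share their seed and are best known for holding down mRNAs of the extracellular matrix, among them those of fibrillar collagens, elastin and fibrillin. The sclera is the collagen-rich outer coat of the eye and is remodelled as a myopic eye grows, whereas the retina is nervous tissue with little fibrillar collagen. The members were all entries of the array whose names begin with mmu-miR-29a-, mmu-miR-29b- or mmu-miR-29c-, and there were 6 of them among 696 mouse miRNA names, measured with 16 of 1937 probes. No collagen mRNA and no protein was measured on these arrays.

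C57BL/6J mice wore a frosted diffuser over the right eye for 10 days from postnatal day 24 (P24), and tissues were taken at P34. The 4 groups were the myopic retina and myopic sclera of the right eyes and the control retina and control sclera of the untreated left eyes of the same mice. Each group had 3 pools of 3 eyes with 1 Agilent array per pool, so that all 12 arrays came from animals of the same strain and age, and an untreated left eye belonged to an animal that wore a diffuser. The pools of a group held different eyes and were processed side by side, per the protocol in the labels, whose sample names speak instead of a single mouse and eye per array. The protocol was followed here, and p-values measure only the spread between samples of a group, 3 in each, whichever of the 2 readings holds. For the limma fits given below, that spread was estimated over all 4 groups together. An outlying array in any group therefore enters every comparison.

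The family has 4 genes in 2 clusters. On chromosome 6, Mir29a and Mir29b-1 lie on the minus strand with 275 bases between their hairpins, and RefSeq (GRCm38.p6) places no other gene over them. On chromosome 1, Mir29b-2 and Mir29c lie on the plus strand with 426 bases between them, inside the long non-coding RNA gene A330023F24Rik. The 3p arms are shown first because the tissue differences described later separated RNAs that share a seed. In the RefSeq sequences, capitals mark the seed.
mmu-miR-29a-3p, chr6:31062673-31062694, minus strand: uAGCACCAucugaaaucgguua
mmu-miR-29b-3p, chr6:31063025-31063047, minus strand, and chr1:195037091-195037113, plus strand: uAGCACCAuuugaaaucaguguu
mmu-miR-29c-3p, chr1:195037600-195037621, plus strand: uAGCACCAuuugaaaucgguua
Of 1679 mature mouse miRNA names, these 3 alone had the seed AGCACCA. Counted from 1 at the 5′ end, miR-29c-3p differed from miR-29a-3p by C10U in 22 bases. miR-29b-3p differed from miR-29c-3p by G18A, U21G and A22U and had 1 more base. miR-29b-3p comes from both clusters with the same sequence, so its signal cannot be divided between Mir29b-1 and Mir29b-2. It was also the only one of the 3 that ended in AGUGUU, a hexamer known from work in human cells to direct miR-29b to the nucleus.

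The 5p arms come from the other side of the hairpins and do not share the seed of the 3p arms. They are shown because their seeds differ from each other and because only that of Mir29c was bright on the arrays.
mmu-miR-29a-5p, chr6:31062711-31062732, minus strand: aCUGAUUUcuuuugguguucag
mmu-miR-29b-1-5p, chr6:31063067-31063088, minus strand: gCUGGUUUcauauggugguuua
mmu-miR-29c-5p, chr1:195037562-195037583, plus strand: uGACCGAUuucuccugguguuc
The 5p arm of Mir29b-2 was not among the names of the array. No 5p seed of the 3 was found in another mature mouse miRNA name.

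A probe of this platform is complementary to its miRNA, so that close relatives can bind it in part. The longer probes of miR-29a-3p and miR-29c-3p are shown with the base that tells them apart in capitals.
Probe of mmu-miR-29a-3p: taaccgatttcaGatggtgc
Probe of mmu-miR-29c-3p: taaccgatttcaAatggtgcta
Each probe of either had 1 mismatch to the other miRNA. The probes of miR-29b-3p had 4 mismatches to miR-29a-3p and 3 to miR-29c-3p. How much of a signal came from a relative was not tested.

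The values are total gene signals, the fluorescence intensity that Agilent's software adds up over the detected probes of a miRNA after subtracting background. The arrays of the retina were brighter, with 353 to 401 miRNAs detected and a median detected signal of 109 to 174, against 274 to 317 miRNAs and 42.1 to 83.2 in the sclera. Each group lay at its own position on all 3 slides, so position and group cannot be told apart. Arrays with the same pool number shared a slide, so pool number and slide cannot be told apart either. Between pools of a group, Pearson's r of the log2 signals was 0.845 to 0.990, lowest for pools 1 and 3 of the control retina. The array of pool 3 of the control sclera stood apart from the other sclera arrays in several values given with the results.

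The lists for retinal neurons and mesenchyme matched the tissue labels. The 6 miRNAs listed for retinal neurons (such as miR-124-3p and miR-183-5p) held 34.1 to 38.4% of the detected signal in the retina and 0.420 to 3.58% in the sclera, and none of the 6 was undetected in a sclera group. The 7 miRNAs listed for mesenchyme held 0.0196 to 0.0757% in the retina and 3.91 to 6.23% in the sclera, and of these miR-214-3p and miR-10b-5p were undetected on every retina array. Sclera arrays also carried 0.655 to 1.41% of 4 skeletal muscle miRNAs, against 0.0411 to 0.0697% in the retina. In such whole tissues, fewer cells of a type and less RNA per cell cannot be told apart.

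All members were detected on all 12 arrays except miR-29a-5p. The bright members were the 3p arms and miR-29c-5p. The signals on each array are plotted by group.

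**Figure D1:**
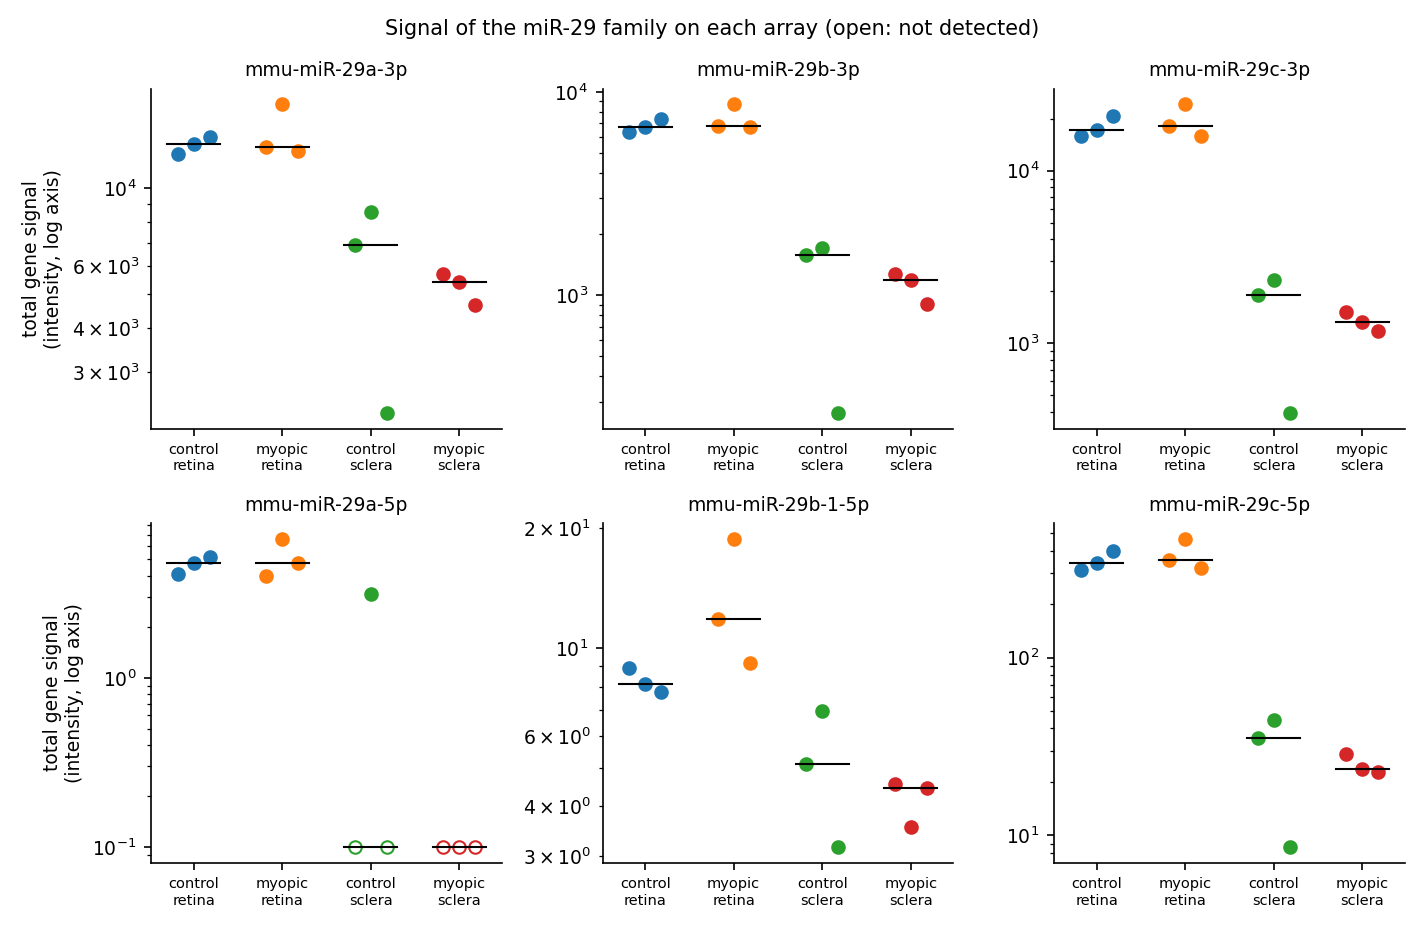
Total gene signal (fluorescence intensity, log axis) of the 6 miR-29 entries on each of the 12 arrays, by group. Points are single arrays, open points are arrays without detection (listed at 0.1) and lines are group medians. The control sclera array with the lowest signal is pool 3 for every member that it detected.

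miR-29a-3p, from the Mir29a–Mir29b-1 cluster, was among the brightest miRNAs in both tissues. Its total gene signal was 12511, 13327 and 13996 in pools 1 to 3 of the control retina and 13059, 17272 and 12696 in those of the myopic retina. In the sclera it was 6889, 8532 and 2294 in the control pools and 5715, 5409 and 4638 in the myopic pools. All raw retina values lay above all sclera values, but its place by signal among the 696 names was 9 to 15 on every array.

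miR-29c-3p, from the Mir29b-2–Mir29c cluster, was likewise among the brightest miRNAs of the retina but not of the sclera. Its signal was 15849, 17262 and 20755 in the control retina and 18062, 24219 and 15796 in the myopic retina. In the sclera it was 1901, 2318 and 393 in the control pools and 1513, 1321 and 1169 in the myopic pools. It ranked 5 or 6 on the retina arrays and 32 to 49 on the sclera arrays.

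miR-29b-3p, which both clusters encode, lay between these patterns. Its signal was 6351, 6746 and 7382 in the control retina and 6767, 8677 and 6725 in the myopic retina. In the sclera it was 1570, 1702 and 263 in the control pools and 1265, 1193 and 905 in the myopic pools. The retina and sclera values did not overlap, and the rank went from 18 to 20 in the retina to 37 to 65 in the sclera.

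miR-29c-5p, the other arm of the Mir29c hairpin, showed the same split between the tissues. It had 310, 341 and 397 in the control retina and 354, 467 and 318 in the myopic retina. In the sclera it had 35.5, 44.6 and 8.58 in the control pools and 28.9, 23.7 and 22.8 in the myopic pools.

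The 5p arms of the chromosome 6 cluster were near the lower end of detection. miR-29b-1-5p had 8.91, 8.11 and 7.77 in the control retina, 11.8, 18.9 and 9.16 in the myopic retina, while the scleral pools gave 5.12, 6.95 and 3.15 for the controls and 4.57, 3.54 and 4.46 for the myopic eyes. miR-29a-5p had 4.11, 4.73 and 5.15 in the control retina and 4.01, 6.63 and 4.73 in the myopic retina, and in the sclera only pool 2 of the controls detected it, at 3.12. The lowest detected signal of any miRNA was 2.41 to 4.70, depending on the array, so these values sit just above what the arrays could show.

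To compare tissues, signals were quantile normalized over the 12 arrays, set to log2 and fitted with limma over 443 miRNAs, and a call required a Benjamini-Hochberg adjusted p under 0.05 and a fold change (FC) of at least 2. In the control eyes, 3 members (miR-29c-3p, miR-29c-5p and miR-29b-3p) were higher in the retina and 1 (miR-29b-1-5p) was lower, of 6 tested. The tissues differed widely, and 50.6% of all tested miRNAs passed in the same comparison, 27.5% higher and 23% lower in the retina. The myopic eyes gave the same 4 members in the same directions (that of miR-29b-1-5p turned with the scaling, as given with its values), where 58.9% of all miRNAs passed, 32.5% higher and 26.4% lower. These shares are the background for the members, so it is the size of the differences and their order within the family that follow.

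miR-29c-3p had the largest difference of the family with quantile normalization. In myopic eyes, the differences of miR-29c-5p and miR-29a-5p were slightly above it with 75th percentile scaling (2.72 and 2.71 against 2.65), as was that of miR-29c-5p without normalization (3.91 against 3.84). On the quantile scale its mean log2 level was 13.76 ± 0.12 in the control retina and 10.89 ± 0.56 in the control sclera (SD, n = 3 each), a log2 difference of 2.87 (SE 0.24, FC 7.29, limma adjusted p = 5.1e-06). In the myopic eyes the levels were 13.76 ± 0.12 and 11.15 ± 0.07, and the difference was 2.61 (SE 0.24, FC 6.09, limma adjusted p = 7.4e-06). It stood at place 10 from the top in control eyes and 16 in myopic eyes among the 246 miRNAs detected on all arrays.

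miR-29c-5p was 2.08 higher in the control retina than in the control sclera on the log2 scale (SE 0.19, FC 4.22, limma adjusted p = 8.3e-06) and 1.90 higher in the myopic eyes (SE 0.19, FC 3.73, adjusted p = 1.3e-05). Scaled to the 75th percentile of each array in place of quantile normalization, the differences were 2.82 and 2.72, close to those of miR-29c-3p on that scale (2.85 and 2.65). With normexp background correction they were 0.68 (FC 1.61) and 0.62 (FC 1.53), in the same direction but under the FC threshold, so the calls were lost there. The signal of miR-29c-5p was 1.79 to 2.19% of that of miR-29c-3p on all 12 arrays. In the control sclera its mean total gene signal, 29.6, was less than its 2 probes gave together (means 10.2 and 20.7). A probe was thus left out of some total there, and that ratio does not cover all probes. In the myopic eyes the arms kept their proportion, with 1.93 to 2.01% in the retina and 1.79 to 1.95% in the sclera.

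miR-29b-3p was higher in the retina by 1.78 in control eyes (SE 0.30, FC 3.44, limma adjusted p = 5.5e-04) and by 1.48 in myopic eyes (SE 0.30, FC 2.80, adjusted p = 0.0016). Its log2 level was 12.29 ± 0.03 and 12.34 ± 0.02 in control and myopic retina, and 10.51 ± 0.74 and 10.85 ± 0.15 in control and myopic sclera (SD, n = 3 each). Without pool 3 of the control sclera, the control difference was 1.36 for miR-29b-3p and 2.54 for miR-29c-3p, and both were still called.

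miR-29a-3p did not pass in either comparison. Its log2 level was 13.23 ± 0.10 in the control retina and 13.06 ± 0.34 in the control sclera, a difference of 0.17 (95% interval −0.19 to 0.54, limma adjusted p = 0.36). In the myopic eyes it was 0.11 (−0.26 to 0.47, adjusted p = 0.56). The intervals, with the spread shared by all 4 groups, leave out a 2-fold difference in either direction on this scale. With 75th percentile scaling the differences were 0.33 (adjusted p = 0.026) and 0.25 (adjusted p = 0.067), under the FC threshold, and over all alternatives the adjusted p ran from 0.019 to 0.87 in control eyes and from 0.012 to 0.8 in myopic eyes. Without normalization between arrays they were 1.37 and 1.44 and both were called, but there the median of the 246 miRNAs itself was shifted by 1.17 and 1.58.

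miR-29b-1-5p was called lower in the retina, with a log2 difference of −1.41 in control eyes (SE 0.29, limma adjusted p = 0.0021) and −1.76 in myopic eyes (SE 0.29, adjusted p = 4.5e-04), but its direction depended on the scaling. With 75th percentile scaling the values were −0.26 and 0.42, and without normalization 0.77 and 1.61, and all raw signals were higher in the retina than in the sclera. This call is therefore given with no direction. miR-29a-5p did not pass (1.61, adjusted p = 0.21, and 1.79, adjusted p = 0.15). It passed with 75th percentile scaling as higher in the retina (1.85, adjusted p = 0.019, and 2.71, adjusted p = 0.0022). With processed spot signals, which average all spots of a miRNA whether detected or not, it was lower in the retina, at −0.94 in control eyes (limma adjusted p = 0.0047, under the FC threshold) and −1.58 in myopic eyes (adjusted p = 1.5e-04, called). Over the alternatives its adjusted p ran from 2.8e-04 to 0.72 in control eyes and from 1.5e-04 to 0.67 in myopic eyes. No direction is given for it either, and no bound on its fold could be set in the myopic eyes because the retina signal lay under the detection bound of the sclera arrays.

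**Figure D2:**
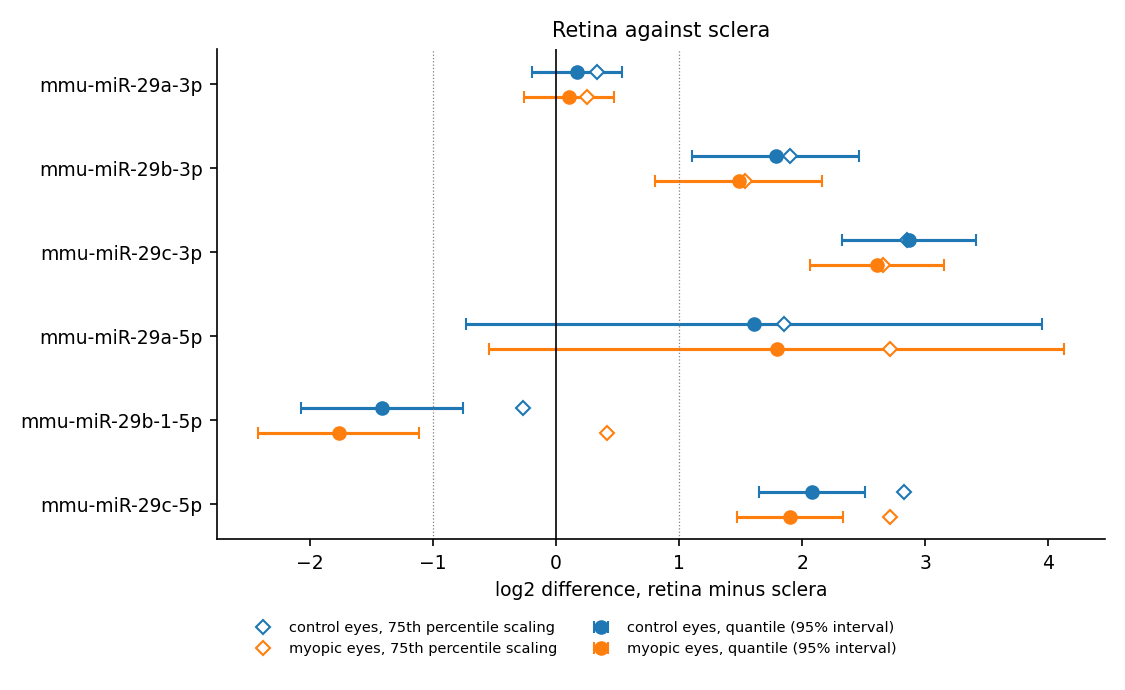
Log2 difference between retina and sclera for the 6 entries, in control eyes (blue) and myopic eyes (orange). Filled points are quantile-normalized values with 95% intervals, open diamonds are 75th percentile scaling, and dotted lines mark a 2-fold change. miR-29c-3p, miR-29c-5p and miR-29b-3p lie beyond 2-fold under either scaling, miR-29a-3p lies near 0, and miR-29b-1-5p changes place with the scaling.

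Single probes of the bright members gave similar differences. With 75th percentile scaling, the retina minus sclera difference in control eyes was 2.86 and 2.85 for the 2 probes of miR-29c-3p, 1.91 and 1.90 for those of miR-29b-3p, 0.32 and 0.34 for those of miR-29a-3p and 2.61 and 2.66 for those of miR-29c-5p. Both probes of miR-29c-5p lay under the 2.82 that its total gene signal gave on that scale. The weak members were less uniform. The 4 probes of miR-29b-1-5p ran from −0.93 to 0.45 in control eyes and from −0.66 to 0.34 in myopic eyes. In myopic eyes its brightest probe gave 0.13, against 0.42 for its total gene signal. Those of miR-29a-5p ran from −1.04 to 0.41 in control eyes and from −1.30 to 0.17 in myopic eyes, all below the 1.85 and 2.71 that its total gene signal gave on that scale.

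Since the scale between arrays matters for this family, the members were also compared within each array, where no normalization is needed. Probes differ in how brightly they respond, so a ratio of 2 miRNAs is not a ratio of molecules, and only its change between groups is read. The signal of miR-29c-3p over that of miR-29a-3p was 1.27 to 1.48 in the control retina and 1.24 to 1.40 in the myopic retina, while in the sclera it was 0.171 to 0.276 for the control pools and 0.244 to 0.265 for the myopic pools. The mean log2 ratio was 0.43 ± 0.12 against −2.09 ± 0.39 in control eyes and 0.42 ± 0.09 against −1.98 ± 0.06 in myopic eyes (SD, n = 3 each), a shift of 5.75-fold and 5.29-fold towards miR-29c-3p in the retina.

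miR-29b-3p over miR-29a-3p shifted in the same direction, by 2.96-fold in control eyes and 2.44-fold in myopic eyes. miR-29c-3p over miR-29b-3p shifted by 1.94-fold and 2.17-fold. In these 6 tissue comparisons of ratios no retina array overlapped a sclera array. Each had p = 0.10 in a two-sided exact permutation test, the smallest p that 3 against 3 arrays allow, and an adjusted p of 0.2 over the 12 ratio comparisons, so the test could not pass 0.05. Relative to miR-29a-3p, the order of the retina to sclera shift was therefore miR-29c-3p, then miR-29b-3p, in both kinds of eyes.

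**Figure D3:**
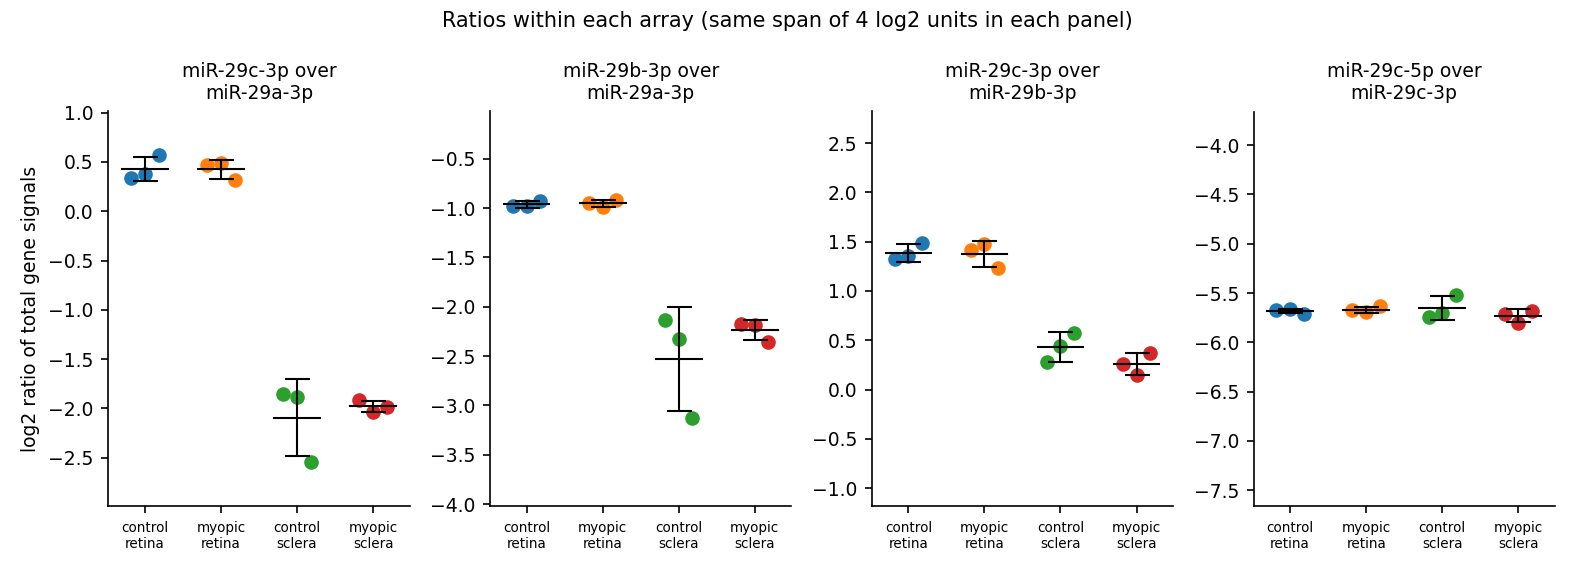
Log2 ratio of total gene signals of a pair of miR-29 entries on each array, by group, with means and SD (n = 3). The first 3 panels show ratios between 3p arms, in which all retina arrays lie above all sclera arrays, and the last shows the arms of Mir29c, whose ratio stays between 1.79 and 2.19% on all arrays.

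Pool 3 of the control sclera had the lowest share of both the retina-rich members and the retinal neuron miRNAs. miR-29c-3p made up 0.196% of its detected signal and miR-29b-3p 0.131%, while the 6 retinal neuron miRNAs made up 0.420%. On the other 5 sclera arrays, the retinal neuron miRNAs ran from 1.24 to 3.58%, miR-29c-3p from 0.469 to 0.606% and miR-29b-3p from 0.383 to 0.445%. Relative to the mean share in the retina, the retinal neuron miRNAs of the sclera arrays stood at 1.17 to 9.94%, miR-29c-3p at 7.14 to 22.1%, miR-29b-3p at 12.5 to 42.3% and miR-29a-3p at 56.0 to 109%. The part that RNA of retinal cells has in the scleral signal of the members was not tested.

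**Figure D4:**
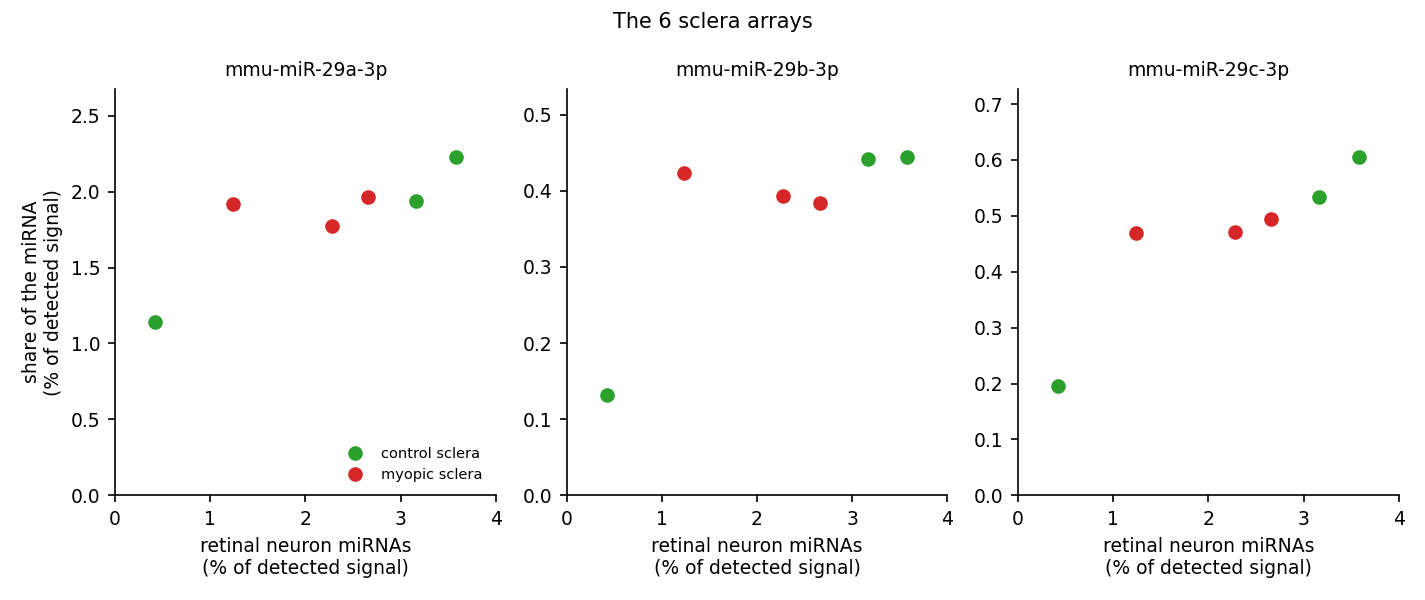
Share of the detected signal (%) held by miR-29a-3p, miR-29b-3p and miR-29c-3p on the 6 sclera arrays, against the summed share of the 6 retinal neuron miRNAs. Pool 3 of the control sclera, at 0.420% on the horizontal axis, has the lowest value in each panel, and the other 5 arrays differ little on the vertical axis for miR-29b-3p.

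The study asked which miRNAs change as the eye becomes myopic. None of the 6 members passed in the myopic sclera against the control sclera, where 0% of all tested miRNAs passed with limma, 13 of 443 had an unadjusted p under 0.05, and none of these was a member. The log2 change was 0.12 for miR-29a-3p (95% interval −0.24 to 0.49), 0.35 for miR-29b-3p (−0.33 to 1.02) and 0.26 for miR-29c-3p (−0.29 to 0.80). For miR-29c-5p it was 0.01 (−0.42 to 0.44) and for miR-29b-1-5p −0.01 (−0.67 to 0.64). miR-29a-5p was undetected on all 3 arrays of the myopic sclera and on 2 of the control sclera, and no fold is given. A 2-fold change in either direction lay outside the intervals for miR-29a-3p, miR-29c-3p, miR-29c-5p and miR-29b-1-5p, and just inside for miR-29b-3p. These intervals rest on a spread shared by all 4 groups. For miR-29c-3p the SD was 0.56 in the control sclera and 0.07 in the myopic sclera, against 0.12 in each retina group. Intervals from the sclera arrays alone are not given, so a 2-fold change is left out only on the shared spread.

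The small positive values of the 3p arms in the sclera rested on 1 array. Without pool 3 of the control sclera, the changes were −0.07 for miR-29a-3p, −0.08 for miR-29b-3p and −0.07 for miR-29c-3p. By pool number, miR-29c-3p changed by −0.10, −0.09 and 0.97, and miR-29b-3p by −0.21, 0.09 and 1.16.

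In the myopic against the control retina, again none of the 6 members passed, while 0.226% of all tested miRNAs did and 130 of 443 had an unadjusted p under 0.05 in limma, none of them a member. That share of all miRNAs depended on single arrays and on array weights. Of the 443, 122 passed without pool 1 of the control retina, 14 without pool 3 of the myopic retina and 146 with array weights, and none of the 6 members was among them. The retinal change was 0.06 for miR-29a-3p (95% interval −0.31 to 0.42), 0.05 for miR-29b-3p (−0.63 to 0.72), 0.00 for miR-29c-3p (−0.55 to 0.55) and −0.17 for miR-29c-5p (−0.60 to 0.26). These intervals, on the same shared spread, do not reach a 2-fold change in either direction. With array weights miR-29c-5p stood at −0.26 (limma adjusted p = 0.02), under the FC threshold. The median of the 246 miRNAs detected on all arrays moved by −0.21 in this comparison. Quantile normalization gives fixed values by rank, and miR-29c-3p took only 13.69 or 13.90 on the retina arrays. Its change of 0.00 and the small SDs of the 3p arms in the retina thus follow ranks. With 75th percentile scaling, miR-29c-3p changed by 0.11, 0.11 and −0.26 by pool number.

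miR-29b-1-5p was the member whose retinal signals did not overlap before quantile normalization. Its raw signal was 9.16 to 18.9 in the myopic retina and 7.77 to 8.91 in the control retina. In the control retina its mean total gene signal, 8.26, was that of its brightest probe alone. In the myopic retina the mean total, 13.3, was above that probe (10.6), so a further probe was counted in some total there. The raw ranges, and the 75th percentile values built on them, thus do not cover the same probes in both groups. With 75th percentile scaling the change was 0.51 (limma adjusted p = 0.26), whereas with quantile normalization it was −0.36 (95% interval −1.02 to 0.29, adjusted p = 0.44) with overlapping groups. Neither passed, the direction turned with the scaling, and the adjusted p ran from 0.0075 to 0.92 over the alternatives, lowest with array weights, where the change was −0.49 and under the FC threshold. miR-29a-5p stood at −1.29 (−3.63 to 1.05, adjusted p = 0.44) with quantile normalization and at 0.00 with 75th percentile scaling.

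**Figure D5:**
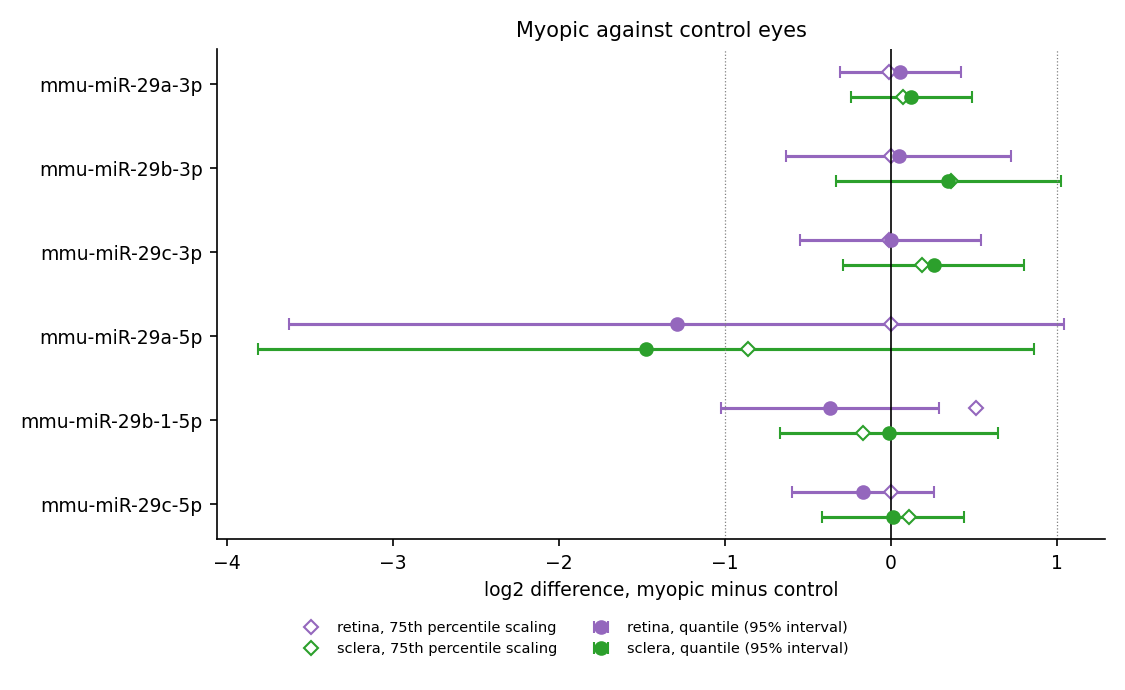
Log2 change between myopic and control eyes for the 6 entries, in the retina (purple) and the sclera (green). Filled points are quantile-normalized values with 95% intervals, open diamonds are 75th percentile scaling, and dotted lines mark a 2-fold change. The interval of each entry includes 0.

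The difference between the retinal and the scleral change was tested as well. None of the 6 members passed, against 0.226% of all miRNAs, and 36 of 443 had an unadjusted p under 0.05 in limma with no member among them. Here 111 of 443 passed without pool 1 of the control retina, 9 without pool 3 of the myopic retina and 156 with array weights, again with none of the members. The 3p arms stood at −0.07 for miR-29a-3p (95% interval −0.58 to 0.45), −0.30 for miR-29b-3p (−1.26 to 0.66) and −0.26 for miR-29c-3p (−1.03 to 0.51). The within-array ratios of the 3p arms changed little with deprivation. Their log2 differences between myopic and control eyes ran from −0.01 to 0.01 in the retina and from −0.17 to 0.29 in the sclera, with exact permutation p from 0.2 to 1 (adjusted p from 0.34 to 1).

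The miRNAs with patterns most like those of the members were sought among 241 others detected on all arrays, by Pearson correlation of log2 levels over the 12 arrays, which mainly follows the retina to sclera contrast that the arrays share. For miR-29c-3p they were miR-30e-5p (r = 0.995), let-7g-5p (r = 0.994) and miR-15a-5p (r = 0.993). For miR-29b-3p they were miR-30e-5p (r = 0.989), miR-218-5p (r = 0.986) and miR-15a-5p (r = 0.985). For miR-29a-3p, whose levels varied little, they were miR-376a-3p (r = 0.841), miR-101a-3p (r = 0.830) and miR-136-5p (r = 0.806). Within the family, r was 0.976 for miR-29b-3p with miR-29c-3p, 0.708 for miR-29a-3p with miR-29b-3p and 0.551 for miR-29a-3p with miR-29c-3p. Under 75th percentile scaling these were 0.981, 0.956 and 0.918, and r of miR-29a-3p with miR-376a-3p was 0.956, so the lower values of miR-29a-3p belong to the quantile scale.

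Other miRNAs linked to collagen, TGF-beta signalling or fibrosis were set beside the family, with a list of 39 of which 37 were tested. In the control eyes 9 were higher in the retina, 14 were lower and 14 did not pass. Their median log2 difference was 0.52, against 0.30 over all 443 miRNAs, and 0.00 when the 4 miRNAs undetected in a whole group were placed at their bound. With 75th percentile scaling 13 were higher and 12 lower, and the medians were 0.79 for the list and 0.79 for all miRNAs. In the myopic eyes the numbers were again 9, 14 and 14, with a median of 0.08, against 0.36 over all miRNAs, and with 75th percentile scaling 12 were higher and 12 lower, with a median of 0.62 against 1.06.

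Among the list's miRNAs that were higher in the retina, the largest fitted differences in control eyes were those of miR-129-5p (7.67, limma adjusted p = 0.0044) and miR-132-3p (3.60, adjusted p = 1.1e-07). miR-129-5p, a brain-enriched miRNA, was detected on 2 of 3 arrays of the control sclera. In myopic eyes they were those of miR-129-5p, detected on 1 array of the myopic sclera, and miR-21-3p, which was undetected there and at least 7.34-fold higher in the retina. Among those lower in the retina, miR-214-3p, encoded with a miR-199 in mesenchymal cells, was undetected on every retina array and at least 272-fold higher in the control sclera and 356-fold higher in the myopic sclera. miR-200a-3p, an epithelial miRNA, was undetected in the control retina as well and at least 39.9-fold higher in the control sclera. miR-199b-5p had a log2 difference of −9.74 between myopic retina and myopic sclera (limma adjusted p = 1.4e-06). For the "at least" values, an undetected miRNA was placed at the lowest detected signal of its array or its own brightest probe, whichever was higher.

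With form deprivation, 0 of the 37 passed in the sclera and 1 in the retina. It was miR-145-5p, a smooth muscle and mesenchymal miRNA, which was detected on all 3 arrays of the control retina and on none of the myopic retina (at least 1.52-fold lower, limma adjusted p = 9.2e-04). Its difference between the retinal and scleral change passed too (limma adjusted p = 0.03). The 7 mesenchyme miRNAs held 0.0211 to 0.0757% of the signal in the control retina and 0.0196 to 0.0233% in the myopic retina. Their part in the change of miR-145-5p was not tested.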

How the data were processed

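The authors deposited scanner output of 12 one-colour Agilent arrays, in which each value is an intensity with background subtracted by Feature Extraction (version 11.0.1.1 per the file headers), and a table of log2 values (quantile normalized, minimum signal 0.5, per the study's methods, which name Partek 6.6 in the submitters' processing notes). Signals here come from the intensity files. The total gene signal was floored at 0.5, quantile normalized over 696 names and set to log2. MiRNAs without detection on any array (253) were not tested. limma 3.58.1 in R 4.3.3 was fitted to 443 miRNAs and 4 groups (8 residual degrees of freedom), two-sided, with Benjamini-Hochberg adjustment over all 443. Within-array ratios had exact permutation tests (scipy 1.17.1). The computed log2 values correlated with the deposited ones at 0.999, with a median absolute difference of 0.12, and the filter behind the 437 deposited mouse miRNAs is not given in the sources used here.

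Groups follow the labels. Members were chosen by name, and for each 3p arm the 3 most correlated miRNAs detected on all arrays and, from the matrix list, the 2 largest calls in each direction were named. The members and lists were chosen with earlier results of these data known. The same mice gave both eyes, so pool numbers pair the samples, although the correlations of their deviations ran from −0.46 to 0.59. Each pool number also had its own slide, so the replicate block covers slide as well. The number of arrays limits the precision. On simulated data for the control tissue comparison, with 40 of 443 miRNAs changed by 2 (log2), 62.4% were recovered. In the data 50.6% passed there, far more than were changed in the simulation, so this rate does not carry over. Alternatives covered the floor, scaling, background correction, spot signals, deposited values, filters, replicate block, moderation, array weights and leaving out each array. Sequences and positions are from RefSeq (GRCm38.p6), whereas the scanner files annotate mm9. Figures were drawn with matplotlib 3.10.9.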

Additional observations from a re-analysis of the deposited data

How the results depend on the processing

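The tissue calls of miR-29c-3p and miR-29b-3p kept their direction and stayed past the threshold under every alternative run. The limma adjusted p of miR-29c-3p ran from 1.7e-09 to 0.0018 in control eyes and from 1.6e-09 to 1.9e-04 in myopic eyes. That of miR-29b-3p ran from 6.7e-07 to 0.019 and from 4.8e-07 to 0.007. In control eyes both were highest in the fit of the arrays compared alone. With normexp background correction (offset 50), which compresses low signals, 2 members were called in control eyes and 2 in myopic eyes in place of 4 and 4, and miR-29c-5p and miR-29b-1-5p were the calls lost. The replicate block gave 4 and 4 members in the tissue comparisons and 0 in the others and changed no call of a member. miR-29a-5p, near the detection limit, was gained as a call, higher in the retina, in myopic eyes with 75th percentile scaling, without normalization, without pool 2 of the control sclera and in a fit of the arrays compared alone, and in control eyes with the first 3 of these. With processed spot signals it was called lower in the myopic retina instead (−1.58, limma adjusted p = 1.5e-04, of a range from 1.5e-04 to 0.67). Leaving out an array gave 4 to 5 called members in each tissue comparison and 0 in each of the other comparisons. Over all miRNAs, 1 of 443 passed in the retina, against 122 without pool 1 of the control retina, 14 without pool 3 of the myopic retina and 146 with array weights.

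Many values that changed direction were near 0, but those of the weak members miR-29b-1-5p and miR-29a-5p often were not. In the tissue comparison of myopic eyes, miR-29b-1-5p went from −1.76 to 1.61 without normalization. There miR-29a-5p went from 1.79 to −1.58 with processed spot signals. The cause was not tested. For myopic against control sclera, array weights gave −0.046 for miR-29a-3p, 0.32 for miR-29b-1-5p, −0.0071 for miR-29b-3p, −0.033 for miR-29c-3p and −0.22 for miR-29c-5p. Normexp gave 0.012 for miR-29a-5p, 0.0063 for miR-29b-1-5p and −0.0092 for miR-29c-5p, and processed spot signals gave 0.25 for miR-29a-5p and −0.059 for miR-29c-5p. For myopic against control retina, 75th percentile scaling gave −0.0082 for miR-29a-3p and 0.51 for miR-29b-1-5p, and no normalization gave 0.11 for miR-29a-5p, 0.62 for miR-29b-1-5p and 0.11 for miR-29c-5p. For control retina against control sclera, miR-29a-5p was at −0.027 with normexp and −0.94 with processed signals, and miR-29b-1-5p at 0.77 without normalization. For the myopic eyes, miR-29a-5p was at −0.040 and −1.58 under those settings, and miR-29b-1-5p at 0.42 with 75th percentile scaling and 1.61 without normalization. For the difference between the retinal and the scleral change, no normalization gave 0.069 for miR-29a-3p, 0.83 for miR-29b-1-5p and 0.043 for miR-29c-5p, array weights gave 0.051 for miR-29a-3p, 0.083 for miR-29b-3p and 0.091 for miR-29c-3p, normexp and processed signals gave −0.013 and −0.64 for miR-29a-5p, and 75th percentile scaling gave 0.68 for miR-29b-1-5p.

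Leaving out 1 array at a time, the scleral change ran from −0.070 to 0.24 for miR-29a-3p, −0.17 to 0.27 for miR-29b-1-5p, −0.079 to 0.56 for miR-29b-3p, −0.065 to 0.44 for miR-29c-3p and −0.21 to 0.14 for miR-29c-5p. The control tissue difference of miR-29a-3p ran from −0.021 to 0.29. The difference between tissues in the change ran from −0.18 to 0.13 for miR-29a-3p, −1.29 to 0.92 for miR-29a-5p, −0.51 to 0.13 for miR-29b-3p, −0.44 to 0.065 for miR-29c-3p and −0.31 to 0.042 for miR-29c-5p. Among the ratios, miR-29c-3p over miR-29a-3p ran from −0.11 to 0.23 and miR-29b-3p over miR-29a-3p from −0.0083 to 0.49 between myopic and control sclera, and miR-29b-3p over miR-29a-3p from −0.0098 to 0.028 and miR-29c-3p over miR-29b-3p from −0.065 to 0.060 between myopic and control retina. The signal over background limits miR-29a-5p and miR-29b-1-5p, and 3 arrays a group limit every comparison.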
